A study of Mus musculus with 23 samples.

Results

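The effect of corticosterone on the quadriceps, a muscle of the upper leg that extends the knee, was followed in female mice, with 5 corticosterone-treated mice (F2, F4, F6, F8 and F10) compared with 6 vehicle-treated mice (F1, F3, F5, F7, F9 and F11). These 11 mice are the female animals among the 23 mice of the series, and the other 12 are male. All were C57Bl6 mice of 8 to 10 weeks that carried a slow-release pellet under the skin for 14 days and were fasted for 5 h before collection. The pellet held 50 mg corticosterone with 50 mg cholesterol in treated mice and 100 mg cholesterol in vehicle-treated mice, so that both groups received cholesterol. The pellet released hormone throughout the body, and the stage of the estrous cycle at collection is not given in the labels. All autosomal genes that passed a filter on low counts are described, namely 12613 of 51201 autosomal gene IDs in the table of counts. The filter kept a gene where 4 or more mice of any of the 4 groups of the series had over 20 normalised counts. RNA of the whole muscle was sequenced, so that a change in the number of cells of a type and a change in RNA per cell cannot be told apart.

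Corticosterone is the main glucocorticoid of the mouse. It binds the glucocorticoid receptor (GR), a transcription factor that moves to the nucleus, binds DNA and raises or lowers the transcription of nearby genes, and it also acts through the mineralocorticoid receptor. In skeletal muscle, glucocorticoids are known for promoting protein breakdown, for opposing insulin action and for changing the use of glucose and fat, and in immune cells for dampening inflammation. Adipose tissue and liver respond strongly as well, with storage of lipid and production of glucose.

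The libraries of the female mice held between 20904845 and 21847218 counts on genes. CPM are the counts scaled to an equal library total, and 3 counts correspond to at most 0.144 CPM before normalisation factors (TMM). The CPM given below include these factors. Muscle genes dominated all libraries, with the skeletal muscle actin gene Acta1 between 24181 and 45299 CPM over the 11 mice. A gene is called here when its adjusted p from edgeR's quasi-likelihood test was under 0.01, and fold changes are given on the log2 scale as corticosterone against vehicle with their standard error (SE). Values of the treated mice are given in CPM in the order F2, F4, F6, F8 and F10. Those of the 6 vehicle-treated mice are given as the lowest, the median and the highest CPM. Where a call was lost when any 1 mouse was left out of the fit, the largest adjusted p so obtained and the mouse left out follow the p of the full fit. Genes named without a p carry no such mark.

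Of the 12613 genes, 1670 (13.2%) passed the test, 910 (7.21%) with a higher and 760 (6.03%) with a lower level after corticosterone. The median log2 fold change over all tested genes was 0.04. Among lists described below, the share called was under 13.2% for autophagy (6.98%), mTORC1 components (11.1%), the dystrophin complex (7.69%) and fibrillar collagens (8.33%). It was also under 13.2% for chemokines and cytokines (10%) and for adipocyte (11.8%), endothelial (6.06%), smooth muscle (7.14%) and Schwann cell markers (6.67%). The 1670 calls became 944 without F6, 1077 without F2, 2177 without F4 and 2264 without F8. The 910 rises became 443 without F6, 585 without F2, 589 without F10 and 604 without F7. Of all 12613 genes, 535 were called in a fit of the female mice alone and 686 with an adipocyte score as a covariate. Fewer calls in a list under these 2 fits are to be read beside this general drop. All 5 treated mice lay above all 6 vehicle-treated mice for 426 genes (3.38%) and below them for 555 genes (4.4%), called or not. Of the 760 called genes that fell, 458 had every treated mouse below the vehicle range, and 751 had every treated mouse below the vehicle mean. Of the 910 genes that rose, 315 had every treated mouse above the vehicle range. For a further 206 genes, F2, F6 and F10 exceeded the vehicle range while F4 and F8 did not, and the mirror pattern was found for 18 of the genes that fell. F4 alone did not exceed the vehicle range for 157 of the genes that rose, and F8 alone for 175. The median shift of the called higher genes from the vehicle mean was 1.19, 0.46, 1.48, 0.41 and 1.21 on the log2 scale in the order given above. Since these genes were called in the same mice, the shifts describe the calls and test nothing.

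**Figure D1:**
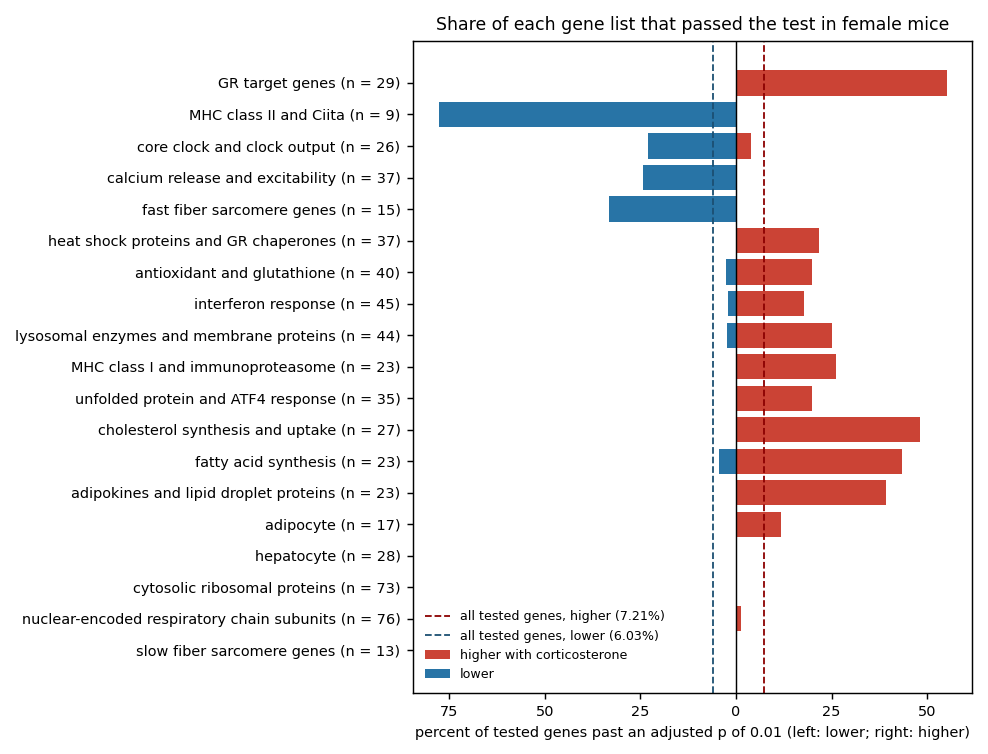
Percent of the tested genes of each gene list that passed the test at an adjusted p of 0.01 in female mice, with genes higher after corticosterone to the right and genes lower to the left; the dashed lines give the share over all tested autosomal genes, 7.21% higher and 6.03% lower. Most GR target genes stand on the right, most MHC class II genes on the left, and the ribosomal protein and hepatocyte lists have no bar.

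The list of classical GR target genes was examined first, as a check of the treatment in each mouse. Of its 29 tested members, 16 rose and 0 fell, with a median log2 fold change of 1.24. The mean log2 CPM of the list stood 1.58, 0.55, 1.86, 1.26 and 1.43 above the vehicle mean in the same order of mice, with an SD of 0.20 among vehicle-treated mice. All 5 treated mice lay above all vehicle-treated mice, F4 by the least. Fkbp5 (ENSMUSG00000024222, chr17:28399094-28517527) encodes a co-chaperone that binds the GR complex and lowers its affinity for hormone. Its level was 278, 207, 269.9, 201 and 149 CPM in the treated mice and 12.5, 24.8 and 48.4 CPM in the vehicle-treated mice. The groups did not overlap, and the log2 fold change was 3.05 ± 0.31 (SE, edgeR adjusted p = 2.1e-06). Cdkn1a (ENSMUSG00000023067, chr17:29090976-29100727), which encodes the cell cycle inhibitor p21, reached 245, 187, 179, 169 and 120.0 CPM against 14.6, 20.4 and 41.1 CPM, with a log2 fold change of 2.89 ± 0.24 (edgeR adjusted p = 6.82e-07). Here too each treated mouse lay far above the highest vehicle-treated mouse. Pik3r1, the regulatory subunit of phosphoinositide 3-kinase, measured 227, 63.2, 193, 156 and 112 CPM with treatment and 26.6, 32.9 and 38.2 CPM without, again with no overlap (2.21 ± 0.23, edgeR adjusted p = 2.1e-06).

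Other GR targets were less even between mice or missed the threshold. Ddit4, an inhibitor of mTORC1 signalling, stood at 145, 9.73, 116, 87.6 and 53.7 CPM in treated mice and at 7.47, 17.9 and 26.9 CPM in vehicle-treated mice, so that F4 remained at the vehicle level while the other 4 exceeded it (2.24 ± 0.56, edgeR adjusted p = 0.00629, 0.0222 without F2). Cebpd, a transcription factor of the acute-phase response, was likewise within the vehicle range in F4 only, at 109, 25.4, 108, 69 and 65.5 CPM against 6.34, 13.6 and 34.6 CPM (edgeR adjusted p = 0.00643, 0.0224 without F6). Glul, which encodes glutamine synthetase, followed the same order, with 388 CPM in F4, between 843 and 1299 CPM in the others, and 269.9 to 596 CPM after vehicle. Hif3a, a hypoxia-inducible factor subunit, rose in every treated mouse (9.0, 0.771, 15.1, 3.44 and 4.17 CPM against 0.173, 0.269 and 0.485 CPM) but was lowest in F4. Per1, a clock gene with GR binding sites, did not pass the test, at 51.9, 18.6, 71.3, 49 and 40.5 CPM against 24.3, 38.7 and 48.5 CPM (log2 fold change 0.29 ± 0.32, edgeR adjusted p = 0.533). Klf15, a transcription factor of amino acid and lipid metabolism, had 78.4, 49.1, 75.8, 78.4 and 64.9 CPM against 44.5, 56.4 and 64.8 CPM and did not pass it either (edgeR adjusted p = 0.0763). The count of called GR target genes was 9 with an adipocyte score as a covariate and 9 in a fit of the female mice alone.

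**Figure D2:**
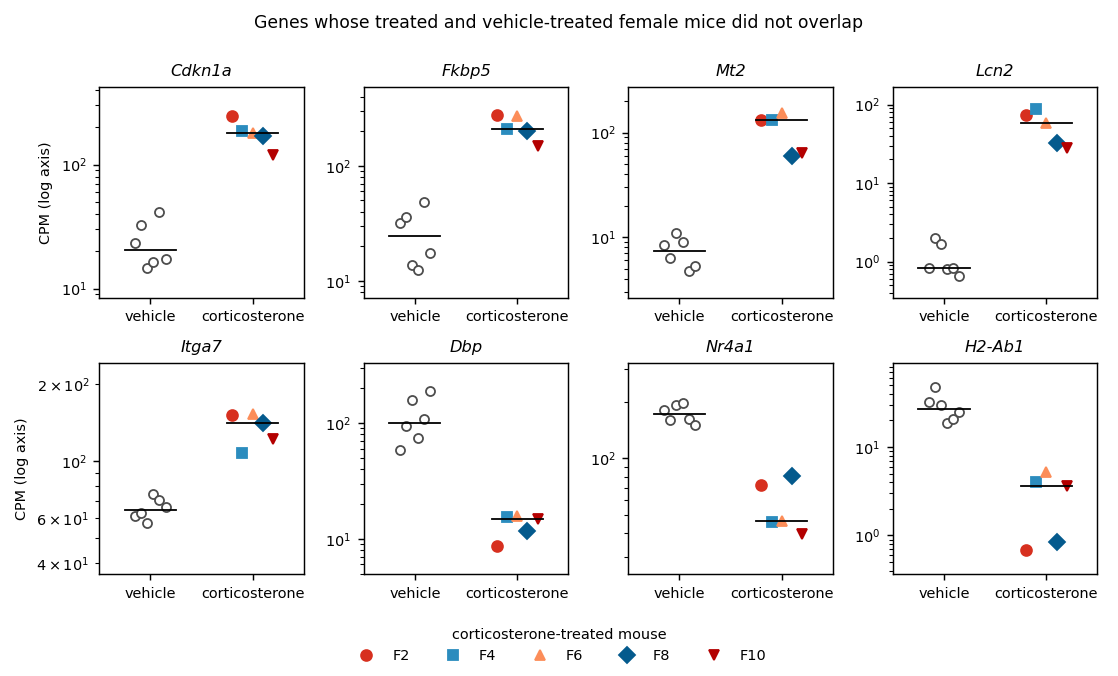
CPM on a log axis in each vehicle-treated mouse (open circles) and each corticosterone-treated mouse (filled symbols, by mouse), with black lines at the group medians, for 8 genes with no overlap between groups. Fkbp5 was at least 149 CPM in treated mice and at most 48.4 CPM in vehicle-treated mice, and H2-Ab1 was at most 5.17 CPM in treated mice and at least 18.6 CPM in vehicle-treated mice.

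Metallothioneins are small cysteine-rich proteins that bind zinc and copper and are induced by metals and by glucocorticoids. Mt1 and Mt2 lie next to each other on chromosome 8 and rose together in every treated mouse. Mt2 measured 131, 132, 153, 59.1 and 63.9 CPM in treated and 4.69, 7.35 and 10.9 CPM in vehicle-treated mice, a log2 fold change of 3.86 ± 0.39 (edgeR adjusted p = 2.46e-06). Mt1 measured 147, 123, 186, 62.4 and 94.4 CPM and 11.5, 14.7 and 27.4 CPM, a log2 fold change of 2.82 ± 0.37 (edgeR adjusted p = 2.72e-05). In both genes F8 and F10 were the lowest treated mice and F6 the highest. The 250 bases before the RefSeq start of each gene (GRCm38.p6) are shown because the pair moved together. Capitals mark matches on either strand to TGCNCNC, a looser form of the metal response element core with any base at each N. A match is therefore not in itself a metal response element. The Mt1 stretch is chr8:94178839-94179088 on the plus strand and the Mt2 stretch chr8:94172368-94172617 on the plus strand, both 5′ to 3′.
Mt1: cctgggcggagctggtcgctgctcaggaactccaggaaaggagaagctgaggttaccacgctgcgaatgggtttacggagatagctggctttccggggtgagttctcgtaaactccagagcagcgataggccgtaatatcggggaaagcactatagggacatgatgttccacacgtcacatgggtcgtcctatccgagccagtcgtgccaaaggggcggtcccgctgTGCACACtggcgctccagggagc
Mt2: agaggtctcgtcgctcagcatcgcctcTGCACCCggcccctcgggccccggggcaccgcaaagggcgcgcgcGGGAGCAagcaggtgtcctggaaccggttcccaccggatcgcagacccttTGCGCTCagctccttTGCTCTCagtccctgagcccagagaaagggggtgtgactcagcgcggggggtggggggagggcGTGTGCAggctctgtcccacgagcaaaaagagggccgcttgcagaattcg
The Mt2 stretch held 5 matches and the Mt1 stretch held 1. At least 1 match was found for 47.2% of all 27025 gene symbols with such a stretch, and at least 3 matches for 5.35%, so that a match is a description of the sequence only. The classical GR binding palindrome, AGAACA and TGTTCT parted by 3 bases of any kind, was found in these stretches for 3 of the 27025 symbols and for 1 of the 26 GR target genes with a stretch, Sgk1. Sgk1, a kinase that regulates ion channels, measured 338, 68.8, 224, 357 and 209.8 CPM against 58.8, 131 and 214 CPM and did not pass the test (edgeR adjusted p = 0.0797).

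Of the 16 tested metallothionein and zinc transporter genes, 3 rose and 2 fell. Slc30a2, a zinc exporter to vesicles, joined the pair with 2.68, 10.4, 2.75, 4.23 and 2.03 CPM against 0.216, 0.384 and 1.37 CPM. It was highest in F4, the mouse that was lowest for several GR targets. Slc39a14, a zinc and iron importer, had all 5 treated mice (15.8 to 21.9 CPM) above all vehicle-treated mice (11.1 to 14.1 CPM) but missed the threshold (edgeR adjusted p = 0.0464).

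Among 21 tested genes of steroid receptors and steroid conversion, 4 rose and 4 fell. Hsd11b1 (ENSMUSG00000016194, chr1:193221634-193264075) encodes the enzyme that regenerates active corticosterone inside cells. Its level was 155, 16.5, 269.8, 9.25 and 143 CPM with corticosterone and 5.39, 7.4 and 9.61 CPM with vehicle. F2, F6 and F10 were far above the vehicle range, F4 was above it by less, and F8 lay inside it. The log2 fold change was 4.04 ± 0.63 (edgeR adjusted p = 0.000181). H6pd, which supplies the cofactor of that enzyme, also rose (1.02 ± 0.20, edgeR adjusted p = 0.00108). Hsp90aa1, a chaperone of the unliganded GR, had 171, 53.7, 139, 199 and 202 CPM against 46.8, 50.8 and 79.2 CPM, with F4 alone inside the vehicle range. Esr1, the estrogen receptor alpha gene, fell from 29.4, 33.6 and 43.6 CPM to 25.4, 16.7, 22.1, 21.9 and 22.9 CPM with no overlap (-0.70 ± 0.13, edgeR adjusted p = 0.000732). The GR gene itself, Nr3c1, fell by less, with 64.8, 81.2, 71.9, 54.2 and 63.9 CPM against 71.5, 97.9 and 124 CPM (-0.54 ± 0.13, edgeR adjusted p = 0.00429, 0.0135 without F7), and F4 and F6 overlapped the vehicle range.

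Protein breakdown was assessed through the FoxO transcription factors, the muscle ubiquitin ligases, the proteasome, autophagy and the lysosome. Of 29 tested genes of the FoxO and ligase list, 3 rose and 3 fell, with a median log2 fold change of -0.05. Foxo1, which drives the transcription of atrophy genes, rose to 87.5, 20.8, 102, 62.3 and 53.7 CPM from 17, 19.7 and 23.5 CPM, with F4 within the vehicle range (1.70 ± 0.23, edgeR adjusted p = 3.9e-05). The ligase genes Fbxo32 and Trim63, which encode atrogin-1 and MuRF1, did not pass the test. Fbxo32 measured 1077, 1078, 899, 378 and 317 CPM against 209, 378 and 712 CPM (log2 fold change 0.74 ± 0.34, edgeR adjusted p = 0.113). Trim63 measured 1062, 569, 641, 381 and 248 CPM against 261, 373 and 729 CPM (0.43 ± 0.31, edgeR adjusted p = 0.323). F8 lay inside the vehicle range for both ligases, and F10 lay inside it for Fbxo32 and below it for Trim63. The other calls of the list were those of Foxo3, of the ligase gene Cblb, which rose, and of Trim55 and Fbxl22, which fell. Foxo6, a further FoxO factor, fell to 0.637, 1.2, 0.121, 2.07 and 1.47 CPM from 3.96, 5.08 and 9.93 CPM without overlap.

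Proteasome subunit genes gave 1 rise and 5 falls among 40 (15% called, against 13.2% of all tested genes), and their median log2 fold change was -0.23. Psmc4, an ATPase subunit of the regulatory particle, had every treated mouse (62.7 to 75.9 CPM) below every vehicle-treated mouse (78.6 to 90.1 CPM), with a log2 fold change of -0.30 ± 0.07. Psma5, Psme4, Psmb2 and Psmd6 were the other subunit genes that fell. Psmd8, a non-ATPase subunit, was the gene that rose (0.50 ± 0.11, edgeR adjusted p = 0.00156). In the autophagy list 3 of 43 genes rose and 0 fell. Map1lc3a, which encodes an LC3 protein of the autophagosome membrane, reached 361, 176, 329.9, 404 and 262 CPM against 128, 137 and 165 CPM in vehicle-treated mice, and its groups did not overlap (1.10 ± 0.17, edgeR adjusted p = 0.000142). Gabarapl1, of the same protein family, had 95.4, 127, 107, 77.5 and 104 CPM against 58, 68.4 and 97.8 CPM and missed the threshold (edgeR adjusted p = 0.0243). The other autophagy genes that rose were Uvrag and Vmp1. Without F2 the proteasome falls numbered 3, without F8 they numbered 10 and without F3 they numbered 9. The fit of the female mice alone called 0 of the 40 genes, against 535 of all 12613.

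Of 44 lysosomal genes 11 were higher and 1 was lower. The list stood 0.28, 0.18, 0.58, -0.10 and 0.48 from the vehicle mean in F2, F4, F6, F8 and F10 (vehicle SD 0.07). Ctsd, the aspartic protease cathepsin D, rose in every mouse (606, 399, 653, 424 and 632 CPM against 288, 324 and 395 CPM, log2 fold change 0.70 ± 0.13, edgeR adjusted p = 0.000461). Ctsb, the cysteine protease cathepsin B, likewise had 838, 607, 977, 570.0 and 894 CPM against 410.4, 438 and 469 CPM. Npc2, which carries cholesterol out of the lysosome, showed the uneven pattern, with 305, 100.1, 402, 63.2 and 327 CPM against 48, 54.9 and 85 CPM and F8 inside the vehicle range. Ctsk, a collagen-degrading cathepsin, was the gene that fell (1.77 to 4.58 CPM against 5.03 to 13.4 CPM). The lysosomal genes called higher numbered 4 with the adipocyte score as a covariate, 2 in the fit of female mice alone, 7 without F2 or without F11, and 5 without F6 or without F10.

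Insulin and insulin-like growth factor (IGF) signalling gave 7 rises and 1 fall among 33 genes. Besides Pik3r1, Igfbp3, which binds IGFs in the extracellular fluid, rose in all treated mice to 86.4, 33.5, 86.4, 51.3 and 56.3 CPM from 15.4, 20.5 and 22.3 CPM (1.67 ± 0.21, edgeR adjusted p = 1.99e-05). Grb10, an adaptor that inhibits the insulin receptor, was the gene that fell, with 45 to 50.5 CPM against 60.4 to 86.6 CPM. Irs1, the insulin receptor substrate, was 34.1, 101, 25.2, 24.7 and 27.5 CPM against 50.2, 70.3 and 99.7 CPM and did not pass the test. F4 lay just above the vehicle range, whereas the other 4 treated mice were under it. Without F6 the list had 3 rises, and without F2, F7 or F11 it had 4. Igfbp5 had all treated mice (139.5 to 298 CPM) below all vehicle-treated mice (373 to 1079 CPM) and still missed the threshold (edgeR adjusted p = 0.0156). In the list of mTORC1 components and sestrins, Ddit4 and Mtor of 27 genes rose and Flcn fell, and 0 were called in the fit of the female mice alone. Mtor, the kinase of the complex, had a log2 fold change of 0.26 ± 0.07 (edgeR adjusted p = 0.0092, 0.0605 without F6), and its call was lost on leaving out any of 10 of the 11 mice. Myostatin, activin and TGF-beta genes gave 4 rises and 3 falls among 37. Inhbb, an activin subunit, rose to 6.41, 8.72, 13, 3.2 and 10.5 CPM from 0.882, 1.88 and 2.66 CPM (2.23 ± 0.38, edgeR adjusted p = 0.000276). Smad3, a transducer of TGF-beta signals, fell to 42, 58.2, 39.6, 51.4 and 42.2 CPM from 58.9, 109.7 and 125 CPM. Mstn, which encodes myostatin, a brake on muscle growth, was 62.1, 92.4, 45.7, 33.3 and 24.5 CPM against 50.3, 65.4 and 158 CPM, with F6, F8 and F10 below the vehicle range and F2 and F4 inside it (edgeR adjusted p = 0.187).

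The machinery of protein synthesis gave no calls. At the threshold of 0.01, edgeR called 0 of 73 cytosolic ribosomal protein genes, 0 of 44 translation factors and 0 of 78 mitochondrial ribosomal protein genes. Under the same fit, 15 of the 73, 11 of the 44 and 13 of the 78 had an unadjusted p under 0.05, and DESeq2 called 5, 1 and 3 of them. Over all 12613 tested genes, 3345 had an adjusted p under 0.05, and at least as many had an unadjusted p under 0.05. The share in each list was therefore under that of all tested genes. This also held in this fit for the hepatocyte, branched-chain amino acid, myosin heavy chain, slow fiber and tendon lists below. The median log2 fold changes of the ribosomal, translation and mitochondrial ribosomal lists were 0.12, -0.02 and -0.03. The cytosolic ribosomal list was highest in F8, 0.43 above the vehicle mean. Nuclear-encoded subunits of the respiratory chain gave 1 call in 76, Cox8a, which rose (107, 47.4, 155, 45.7 and 120.3 CPM against 32.2, 34.9 and 82.6 CPM, edgeR adjusted p = 0.00878, 0.0499 without F6). The list as a whole stood -0.20, -0.09, -0.59, 0.46 and -0.10 from the vehicle mean in the 5 treated mice (vehicle SD 0.11), with F8 above all vehicle-treated mice and F6 the farthest below the mean. Ppargc1a, a coactivator that drives mitochondrial gene expression, was 27.3, 21.3, 18.4, 30.3 and 24.2 CPM against 23.4, 26.9 and 41.3 CPM (edgeR adjusted p = 0.318).

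Fatty acid synthesis genes were much higher in 3 of the treated mice and not in the other 2. Of 23 tested genes, 10 rose and 1 fell, and the median log2 fold change was 2.22. The list stood 2.66, -0.03, 2.89, -0.13 and 2.47 from the vehicle mean, with an SD of 0.71 among vehicle-treated mice. F2, F6 and F10 were high, and F4 and F8 were at the vehicle level. Scd1 (ENSMUSG00000037071, chr19:44394455-44407879), the desaturase that makes monounsaturated fatty acids, measured 16505, 1771, 17963, 265 and 15204 CPM with corticosterone and 139, 330.3 and 1947 CPM with vehicle (4.09 ± 0.92, edgeR adjusted p = 0.00307, 0.0101 without F6). F4 and F8 overlapped the vehicle range. Acly, which makes cytosolic acetyl-CoA from citrate, was 939, 25.8, 849.8, 32.1 and 596 CPM against 21.6, 26.1 and 177 CPM and had the same order (3.19 ± 0.77, edgeR adjusted p = 0.00517, 0.0182 without F6). Fasn, the fatty acid synthase gene, reached 4328 CPM in F6 and 49.4 CPM in F8 and did not pass the test (log2 fold change 3.09 ± 1.04, edgeR adjusted p = 0.0338). Elovl6, a fatty acid elongase, split alike, with 231, 4.58, 226, 4.87 and 236 CPM against 3.88, 5.79 and 69.2 CPM (edgeR adjusted p = 0.0211). Gpam, which starts glycerolipid synthesis, was the gene of the list that fell (-0.66 ± 0.16, edgeR adjusted p = 0.00384, 0.0146 without F2). The 10 rises became 3 without F6, 6 without F2 and 15 without F4 or without F8.

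Cholesterol synthesis and uptake followed the same mice over a narrow vehicle baseline. Of 27 tested genes 13 rose and 0 fell. The list stood 1.28, 0.02, 1.42, 0.11 and 1.28 from the vehicle mean, with an SD of 0.13 among vehicle-treated mice. Sqle, squalene epoxidase, measured 10.6, 0.963, 10.1, 0.984 and 7.83 CPM with treatment and 0.488, 1.27 and 1.38 CPM with vehicle (2.48 ± 0.54, edgeR adjusted p = 0.00228). Hmgcs1, an early enzyme of the pathway, measured 74.2, 42.3, 90.6, 32.4 and 84.7 CPM and 31.3, 34.3 and 38.3 CPM (0.90 ± 0.19, edgeR adjusted p = 0.00138). In both genes F8 lay inside the vehicle range. Without F6 the cholesterol calls numbered 10 and without F8 they numbered 16. None of the 27 was called in the fit of the female mice alone, and 1 was called with the adipocyte score as a covariate. In the former fit 18 of them had an unadjusted p under 0.05 by edgeR, and the share of all tested genes with such a p was not taken there.

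Genes of adipokines and lipid droplets gave 9 rises among 23. Lep, the gene of the fat hormone leptin, measured 264, 55.3, 660.1, 3.2 and 241 CPM in treated mice and 0, 2.3 and 4.25 CPM in vehicle-treated mice (6.79 ± 1.20, edgeR adjusted p = 0.000529), with F8 inside the vehicle range. Pnpla2 and Plin4 were raised in every treated mouse. Pnpla2, the first lipase of triglyceride breakdown, had 771, 759.8, 1219, 575 and 828 CPM against 141, 251 and 345 CPM (1.73 ± 0.22, edgeR adjusted p = 1.59e-05). Plin4, a lipid droplet coat protein that muscle fibers express too, had 647, 401, 849, 516 and 538 CPM against 233, 301 and 343 CPM (1.0 ± 0.16, edgeR adjusted p = 0.000165). G0s2, an inhibitor of that lipase, rose in all 5 as well (55.2, 20.4, 83, 41 and 58.9 CPM against 6.1, 11 and 17.3 CPM). The list gave 5 rises without F6 or without F10, and 5 with the adipocyte score as a covariate.

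Adipocyte markers were highest in F2, F6 and F10, and hepatocyte markers in F6 and F10. Of 17 tested adipocyte markers, 2 (Lep and Lipe) passed the test. Their summed level was 1152 to 8673 CPM over vehicle-treated mice and 762 to 12144 CPM over treated mice, and 0 of the 18 listed markers were at 3 counts or fewer in all female mice. The list stood 3.31, 1.66, 4.26, -1.69 and 3.27 from the vehicle mean in F2, F4, F6, F8 and F10, with an SD of 1.79 among vehicle-treated mice. The vehicle-treated mice themselves ran from -1.85 to 2.07 on the same scale. Cfd, which encodes the adipocyte protein adipsin, did not follow, with 361, 175, 767, 7.23 and 244 CPM against 36.1, 384 and 1198 CPM (log2 fold change -0.77 ± 0.95, edgeR adjusted p = 0.586). Plin1, the droplet protein of adipocytes, was 277, 70.2, 543, 2.85 and 278 CPM against 3.84, 27.2 and 83 CPM and missed the threshold (edgeR adjusted p = 0.0533). None of 28 hepatocyte markers was called by edgeR at 0.01, with 6 at an unadjusted p under 0.05 and 2 called by DESeq2. In the fit of the female mice alone 18 of the 28 had an unadjusted p under 0.05 and 0 were called. The share of all tested genes with such a p in that fit was not taken. All 28 had a log2 fold change above 0, with a median of 2.18, and their summed level was 290.0 to 512 CPM with vehicle and 309 to 4152 CPM with corticosterone. Alb, the albumin gene of liver, reached 822 CPM in F6 and 1876 CPM in F10, whereas F2 had 28.8, F4 had 85.1 and F8 had 140.4 CPM. The last 3 lay inside the vehicle range of 18.5 to 218 CPM. With the adipocyte score as a covariate, 2 fatty acid synthesis genes rose and 0 fell; with the hepatocyte score, 8 rose and 1 fell. Each score was the mean log2 CPM of its markers, and the adipocyte markers include the called genes Lep and Lipe. Since both scores were themselves high in some treated mice, these fits cannot part adipose or liver RNA from the treatment. The part of such RNA in the lipid genes was not tested.

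**Figure D3:**
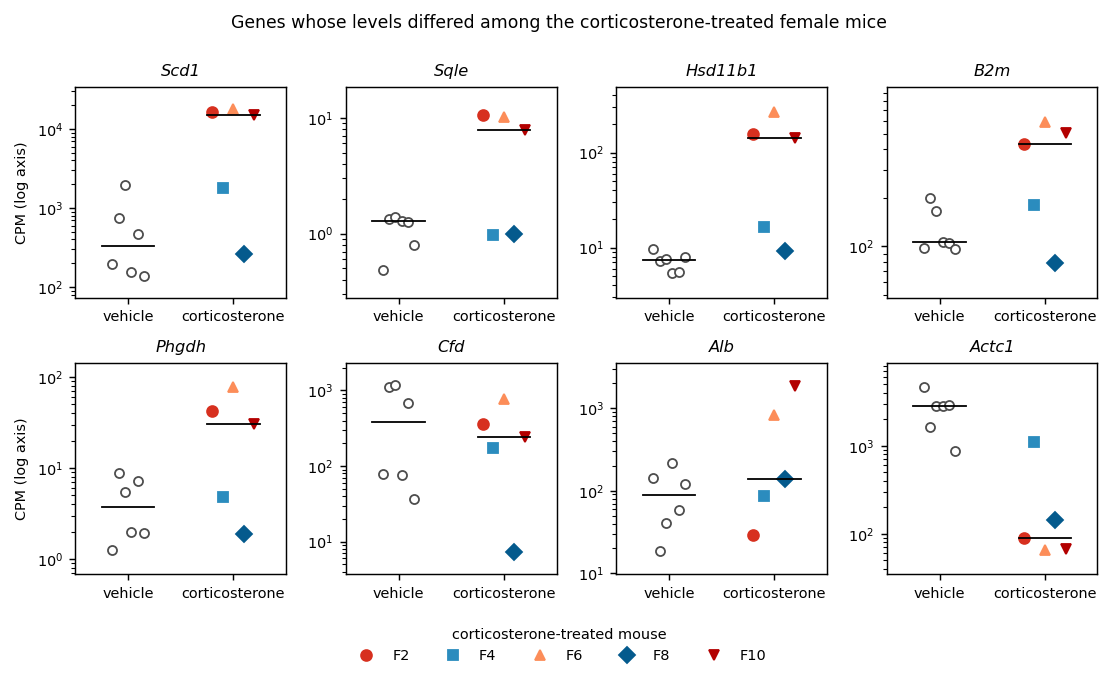
CPM on a log axis in each vehicle-treated mouse (open circles) and each corticosterone-treated mouse (filled symbols, by mouse), with black lines at the group medians, for 8 genes that differed among treated mice. F2, F6 and F10 lie above F4 and F8 for Scd1, Sqle, Hsd11b1, B2m and Phgdh, whereas Alb is high in F6 and F10 only and F4 keeps the highest treated level of Actc1.

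Fatty acid uptake and oxidation gave 4 rises and 0 falls among 46 genes (8.7% called, against 13.2% of all tested genes). Of the 46, 40 had a log2 fold change above 0, and the median was 0.27, against 0.04 over all tested genes. Cd36, a fatty acid transporter, rose in all treated mice (860.0, 648, 1304, 583 and 1069 CPM against 242, 349 and 458 CPM, log2 fold change 1.39 ± 0.22, edgeR adjusted p = 0.000157). Angptl4, an inhibitor of lipoprotein lipase, did so too, at 115, 89.9, 168, 46 and 138 CPM against 4.76, 19.8 and 30.8 CPM (2.55 ± 0.36, edgeR adjusted p = 6.75e-05). Pdk4, the kinase that shuts glucose carbon out of the mitochondrion, was 2287, 2192, 1595, 2005 and 1911 CPM against 417, 882 and 1837 CPM and missed the threshold (edgeR adjusted p = 0.0144). In glycolysis 2 of 26 genes rose, the glucose transporter Slc2a3 and Pgam1, and 2 fell, Pfkm and Pfkfb4. The share called was 15.4%, against 13.2% of all tested genes. Pfkm, the muscle phosphofructokinase, fell in F2, F6, F8 and F10 while F4 stayed inside the vehicle range (1543, 3559.9, 1069.6, 1756 and 1179.9 CPM against 3095, 3254 and 3951 CPM, edgeR adjusted p = 0.0044, 0.0153 without F2). Among 21 glycogen genes 3 rose and 2 fell, with the branching enzyme Gbe1 higher in all treated mice (101, 75.2, 109, 119 and 105 CPM against 25.1, 37.7 and 43.6 CPM, 1.49 ± 0.22, edgeR adjusted p = 6.75e-05). Ppp1r3c, which brings a phosphatase to glycogen, had 1669, 109.8, 1114, 1172 and 516 CPM against 88, 294 and 451 CPM, with F4 low and the other 4 above the vehicle range, and was not called (edgeR adjusted p = 0.014). Slc27a4 and Pex11a of the fatty acid list rose as well, the other glycogen genes that rose were Ppp1r3b and Pygb, and Epm2a and Phkg1 fell. Amino acid transport and glutamine export gave 5 rises (Slc3a2, Glul, Slc38a10, Gpt and Slc7a6) and 2 falls, that of Slc6a6 included, among 32 genes. Slc1a5, a glutamine transporter, just missed the threshold with the uneven pattern (361, 113, 838, 25.3 and 334 CPM against 18.7, 45.5 and 109 CPM, edgeR adjusted p = 0.0104). None of the 22 genes of branched-chain amino acid breakdown was called by edgeR, 5 had an unadjusted p under 0.05, and DESeq2 called 2.

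Several genes of the fast contractile apparatus fell. Of 15 genes of the fast fiber list, which holds the calcium-binding proteins of Pvalb and Casq1 beside sarcomere genes, 5 fell and 0 rose. The list stood -0.25, -0.0031, -0.78, -0.09 and -0.93 from the vehicle mean in F2, F4, F6, F8 and F10. Myl1, the fast essential myosin light chain, dropped to 3346, 7890.2, 2052, 4803 and 2776 CPM from 11622, 13799 and 15694 CPM with no overlap (-1.72 ± 0.28, edgeR adjusted p = 0.000201). Pvalb, the calcium buffer parvalbumin of the fastest fibers, dropped to 7527, 8354, 4650.1, 8116 and 4529 CPM from 9086, 13446 and 17366 CPM (-1.03 ± 0.22, edgeR adjusted p = 0.00171). Tnnc2, fast troponin C, was lower in each treated mouse as well (6199 to 11211 CPM against 12012 to 17288 CPM, edgeR adjusted p = 0.0037, 0.0142 without F6). The other 2 calls were Casq1, which is also counted among the calcium release genes below, and Tpm1. The call of Tpm1 was lost on leaving out any of 9 of the 11 mice, and 2 falls of the list were left without F6, F7 or F10. Myosin heavy chain genes were not called in either direction (edgeR, 0 of 12, with 2 at an unadjusted p under 0.05 and 1 called by DESeq2). Myh4, the chain of type 2B fibers, measured 35279, 51859, 25216, 21647 and 13225 CPM against 24417, 35505 and 48121 CPM. Of the slow fiber genes edgeR called 0 of 13, with 1 at an unadjusted p under 0.05 and 0 called by DESeq2. Their summed level was 249 to 8726 CPM with vehicle and 1027 to 8049.9 CPM with corticosterone, so that only a large difference was detectable.

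Genes of calcium release and membrane excitability gave 9 falls and 0 rises among 37. They include Stac3, which couples the calcium channel of the T-tubule to release (168, 159, 108, 235 and 136 CPM against 248, 308 and 375 CPM, log2 fold change -0.93 ± 0.17, edgeR adjusted p = 0.000521). Scn4a, the muscle sodium channel, had all 5 treated mice (281 to 403 CPM) under all vehicle-treated mice (412 to 637 CPM, edgeR adjusted p = 0.00558, 0.0192 without F6). Casq1, the calcium store protein calsequestrin, had 1334 to 2419 CPM against 2519 to 4144 CPM (edgeR adjusted p = 0.00387, 0.0148 without F6). F8 was the highest treated mouse for Stac3, Scn4a and Casq1. The count of falls was 2 with the adipocyte score as a covariate and 2 in the fit of the female mice alone, 4 without F6, 5 without F10 and 6 without F2.

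Of 31 genes of actins, the Z-disc and the stretch response, 2 rose (Cryab and Des) and 2 fell (Actc1 and Myoz3). The share called was 12.9%, against 13.2% of all tested genes. Actc1, the cardiac actin gene that skeletal muscle re-expresses when it grows or regenerates, was 89.4, 1113, 65.2, 144 and 68 CPM with corticosterone and 872, 2795 and 4687 CPM with vehicle (-3.14 ± 0.74, edgeR adjusted p = 0.00404, 0.0131 without F6). F4 kept a level inside the vehicle range and the other 4 were below it. Cryab, a small heat shock protein of the Z-disc, rose in all treated mice (1822, 1023, 1193, 3426 and 2272 CPM against 433, 559.8 and 765 CPM). Ankrd1, a stretch-responsive repeat protein, had treated mice at 28.1, 49.8, 31.6, 65.7 and 59.1 CPM, all above 0.976, 2.04 and 20.6 CPM, but missed the threshold (edgeR adjusted p = 0.0239). In the dystrophin complex 2 of 26 genes rose. Itga7, the laminin receptor subunit of muscle, had 152, 107, 153, 141 and 122 CPM against 57.3, 64.6 and 74.7 CPM (1.04 ± 0.11, edgeR adjusted p = 2.18e-06). At the neuromuscular junction Ache, acetylcholinesterase, fell in every treated mouse (6.7 to 24.6 CPM against 26.9 to 78.6 CPM, edgeR adjusted p = 0.00807, 0.0279 without F6). Musk, the receptor kinase that organises the junction, rose (23.6, 15.2, 19.2, 17 and 10.1 CPM against 4.99, 7.62 and 15 CPM, 1.03 ± 0.25, edgeR adjusted p = 0.00515, 0.0207 without F2). Myogenic and regeneration genes gave 2 rises (Itga7 and Des) and 5 falls (Pax7, Fgfr4, Eya1, Mef2c and Myf5) among 26. Pax7, the transcription factor that marks satellite cells, the stem cells of muscle, fell to 0.909, 2.46, 0.606, 0.689 and 0.795 CPM from 2.2, 4.07 and 5.43 CPM, with F4 inside the vehicle range (-1.84 ± 0.32, edgeR adjusted p = 0.000375). The falls numbered 2 without F2, F6 or F9 and 3 without F7 or F10.

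Of 26 tested clock genes 6 fell and 1 rose. Dbp, a clock-controlled transcription factor, fell to 8.68, 15.5, 15.7, 11.8 and 14.9 CPM from 58.9, 101 and 189 CPM, the deepest fall of the list, with no overlap (-3.10 ± 0.34, edgeR adjusted p = 4.89e-06). Nr1d1, a nuclear receptor that represses Arntl, fell to 133, 134, 117, 129 and 99.1 CPM from 125, 205 and 254 CPM with overlap (-0.71 ± 0.17, edgeR adjusted p = 0.0038, 0.0115 without F10). Bhlhe41, a repressor of the clock loop, had 16 to 23.7 CPM against 36.1 to 58.8 CPM. Arntl itself was 26.5, 29.8, 15.4, 31.9 and 19.3 CPM against 10.1, 23.2 and 30.6 CPM (edgeR adjusted p = 0.698). Hlf, a transcription factor of the same family as Dbp, fell without overlap too (4.33 to 8.0 CPM against 8.0 to 17.2 CPM), and Nr1d2 and Csnk1d completed the falls. The fit of the female mice alone called 2 falls. The time of day at collection is not given for single mice.

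Antigen presentation split by class. MHC class II molecules, which antigen-presenting cells use to show peptides to helper T cells, were lower in all treated mice. Of 9 tested genes 7 fell and 0 rose, and the summed level was 125 to 264 CPM over vehicle-treated mice and 23 to 59.2 CPM over treated mice. H2-Ab1 (ENSMUSG00000073421, chr17:34257689-34269419), a class II beta chain, was 0.682, 4.0, 5.17, 0.837 and 3.62 CPM with corticosterone and 18.6, 27.2 and 48.2 CPM with vehicle (-3.33 ± 0.44, edgeR adjusted p = 3.09e-05). Cd74, the invariant chain that guides class II molecules, was 1.77, 10.4, 14.9, 1.92 and 8.11 CPM against 41.8, 58.6 and 101 CPM (-3.10 ± 0.47, edgeR adjusted p = 0.000139). Ciita, the transactivator on which class II transcription depends, was 0.0455, 0.289, 0.202, 0.0492 and 0.0397 CPM in treated mice and 0.561, 0.977 and 1.72 CPM with vehicle (-3.04 ± 0.46, edgeR adjusted p = 0.000107). Its levels in F2, F8 and F10 correspond to fewer than 3 counts. F2 and F8 had the lowest and F6 the highest levels of H2-Ab1 and Cd74 among treated mice. H2-DMa and H2-DMb1, which load peptides onto class II molecules, fell without overlap as well. The summed level of lymphocyte markers, most of it from the 1 gene Ighm, was also low in some of these mice. For the 19 listed markers it was 14.5, 109.7, 37.6, 9.6 and 13.4 CPM in treated mice and 65.2, 84.9 and 118 CPM in vehicle-treated mice. F4 lay inside the vehicle range and the other 4 treated mice below it, with F8 the lowest. Of the 19, 3 (Cd3e, Cd8a and Klrb1c) were at 3 counts or fewer in every female mouse, and 2 were tested and not called. These were Ighm, the heavy chain of immunoglobulin M, with 12, 106, 32.9, 7.43 and 8.78 CPM against 55.8, 77.3 and 114 CPM (edgeR adjusted p = 0.136), and Ptprc, the leukocyte marker CD45, with 1.68, 2.84, 3.27, 0.935 and 3.26 CPM against 1.86, 2.43 and 6.01 CPM (edgeR adjusted p = 0.402). The part of lymphocyte RNA in the class II genes was not tested. The class II list had 7 falls with the adipocyte score, with the hepatocyte score and without any 1 female mouse, and 6 in the fit of the female mice alone. The 250 bases before the start of H2-Aa (chr17:34287824-34288073 on the minus strand) and H2-Eb1 (chr17:34305617-34305866 on the plus strand), from RefSeq on GRCm38.p6 and written 5′ to 3′ along each gene, are shown because both genes fell with Ciita, with matches to the Y box CTGATTGG on either strand in capitals.
H2-Aa: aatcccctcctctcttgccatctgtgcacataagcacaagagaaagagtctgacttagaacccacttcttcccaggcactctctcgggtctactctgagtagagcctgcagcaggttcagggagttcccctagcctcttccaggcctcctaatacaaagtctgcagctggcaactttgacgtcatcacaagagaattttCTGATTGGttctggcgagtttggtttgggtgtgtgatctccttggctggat
H2-Eb1: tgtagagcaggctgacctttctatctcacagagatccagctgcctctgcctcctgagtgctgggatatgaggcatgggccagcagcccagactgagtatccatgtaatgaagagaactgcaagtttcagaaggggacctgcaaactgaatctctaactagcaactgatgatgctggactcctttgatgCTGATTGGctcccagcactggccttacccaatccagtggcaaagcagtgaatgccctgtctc
Each stretch held 1 match, as did those of 4.43% of the 27025 symbols in at least 1 copy. Of the 9 class II genes 6 had a stretch in the reference and 2 held the motif. H2-Aa measured 0.546, 6.21, 8.41, 1.18 and 4.77 CPM against 24.4, 35.7 and 53.7 CPM, and H2-Eb1 measured 0.318, 2.75, 4.85, 0.787 and 2.58 CPM against 15.6, 20.9 and 33.2 CPM.

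MHC class I and the immunoproteasome, which present peptides to cytotoxic T cells, gave 6 rises and 0 falls among 23. B2m, the light chain shared by class I molecules, was 434, 180.2, 593, 79.1 and 508 CPM in treated and 95.5, 106 and 201 CPM in vehicle-treated mice (1.48 ± 0.35, edgeR adjusted p = 0.00412, 0.0217 without F6). H2-D1, a class I heavy chain, was 446, 229.5, 622, 76.7 and 485 CPM against 106, 115 and 199 CPM (1.41 ± 0.33, edgeR adjusted p = 0.00412, 0.0224 without F6). For both, F2, F6 and F10 were above the vehicle range and F8 was below it. The class I list gave 1 rise with the adipocyte score as a covariate, 1 in the fit of the female mice alone, 8 without F8, 3 without F1, F7, F9 or F11 and 2 without F2, F6 or F10. Interferon response genes gave 8 rises and 1 fall among 45. Irf7, a master regulator of type I interferon, rose to 26.5, 34.1, 24.2, 7.18 and 35.4 CPM from 4.79, 7.65 and 11.3 CPM with F8 inside the vehicle range (1.71 ± 0.32, edgeR adjusted p = 0.000642). The interferon list stood 0.34, 1.06, 0.52, -0.42 and 0.82 from the vehicle mean in F2, F4, F6, F8 and F10, with F4 the highest. It gave 1 rise with the adipocyte score, 18 without F8, 5 without F1, F6, F7 or F11, 4 without F9 and 3 without F10. The gene that fell was Irf8, a factor of myeloid and B cells, with 2.9 to 4.77 CPM against 5.63 to 7.28 CPM (edgeR adjusted p = 0.00634, 0.0176 without F9).

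Macrophage markers gave 1 rise and 1 fall among 21 (9.52% called, against 13.2% of all tested genes). Their summed level was 159 to 357 CPM with vehicle and 205 to 659 CPM with corticosterone. Lyve1, found on a tissue-resident macrophage group and on lymphatic vessels, rose in all treated mice (27.1, 20.9, 37.2, 13.9 and 47.6 CPM against 1.99, 7.71 and 9.23 CPM, log2 fold change 2.22 ± 0.42, edgeR adjusted p = 0.000826). Ccr2, the receptor that brings monocytes into tissue, fell (0.591, 2.84, 0.97, 0.344 and 1.75 CPM against 2.49, 4.64 and 6.01 CPM, -1.81 ± 0.42, edgeR adjusted p = 0.00371, 0.0133 without F6). Adgre1, the general macrophage marker F4/80, was 4.23, 7.03, 9.46, 2.95 and 14.7 CPM against 3.36, 4.89 and 7.76 CPM and was not called. The summed level of the list was highest in F10 and 0 of its 24 listed markers were at 3 counts or fewer in every female mouse. Of 20 tested chemokine and cytokine genes 2 rose, Cxcl13 and Il6ra. Cxcl13, which attracts B cells, was 17.3, 3.32, 18.1, 2.26 and 16.5 CPM against 0, 0.366 and 0.601 CPM. Il6ra, the receptor for interleukin 6, was 37, 33, 46.8, 18.1 and 24.5 CPM against 3.64, 5.02 and 12.1 CPM (2.31 ± 0.31, edgeR adjusted p = 3.38e-05). Globin genes of red blood cells were higher, with Hbb-bs, Hbb-bt and Hba-a1 among the 4 of 6 tested genes of the erythrocyte list that passed the test. Hbb-bs, an adult beta globin, was 176, 118, 237, 204 and 243 CPM against 37.1, 53.8 and 143 CPM (1.48 ± 0.34, edgeR adjusted p = 0.00371, 0.0144 without F6), and its reads may be shared with near-identical globin copies. No gene of the list was called without F1, F6, F7 or F10, with the adipocyte score or in the fit of the female mice alone, and 1 was called without F2, F9 or F11.

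Matrix genes were divided. Of 12 fibrillar collagen genes 1 fell, Col24a1, and 0 rose. Col3a1, the type III collagen gene, had all treated mice (116, 186, 190.0, 33.3 and 193 CPM) below all vehicle-treated mice (220.5, 307 and 714 CPM) and an edgeR adjusted p of 0.0105, just above the threshold. Col1a1 of type I collagen was 68, 139, 92.9, 29.6 and 86.4 CPM against 72, 186 and 291 CPM (edgeR adjusted p = 0.0316). In the list of basement membrane and collagen VI genes 5 of 22 fell and 0 rose. These were Col15a1 and the genes Col6a1, Col6a2, Col6a3 and Col6a6 of collagen VI, which anchors muscle fibers to their matrix. The list as a whole was not lower, with a median log2 fold change of 0.13, 13 genes above 0 and 9 below. The falls numbered 3 without F2, F3, F8 or F11. Col6a3 was 18.4, 37.1, 28.5, 14.1 and 28.3 CPM against 49, 62.4 and 99.4 CPM (-1.41 ± 0.23, edgeR adjusted p = 0.000177). Mmp2, a gelatin-degrading protease, fell in each treated mouse to 19.3, 44.9, 25.7, 14.1 and 27.5 CPM from 48.4, 58.2 and 88.7 CPM (-1.28 ± 0.22, edgeR adjusted p = 0.000272). Lox, which crosslinks collagen and elastin, went the other way, with 47.2, 42.6, 90.9, 16 and 53.3 CPM against 4.44, 7.55 and 12.2 CPM and no overlap (2.69 ± 0.33, edgeR adjusted p = 1.64e-05). Of 17 fibroblast markers Smoc2, Thy1 and Lum fell, and their summed level was 1906 to 3087 CPM with vehicle and 1617 to 3184 CPM with corticosterone. Aplnr, the apelin receptor of endothelial cells, fell to 0.818, 5.35, 0.929, 1.72 and 2.86 CPM from 10.5, 18.3 and 36.4 CPM (-3.14 ± 0.44, edgeR adjusted p = 5.37e-05), while the other endothelial marker called of 33, Cav1, rose (0.97 ± 0.22, edgeR adjusted p = 0.00258, 0.0156 without F6).

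Stress responses were mostly upward. Heat shock proteins and GR chaperones gave 8 rises and 0 falls among 37, and the list was highest in F8 (0.65, 0.13, 0.27, 0.94 and 0.60 from the vehicle mean in the order of mice). The rises numbered 14 without F4, 5 without F7 or F9 and 4 without F1, F2 or F11. Hsph1, a large chaperone that assists Hsp70, was 181, 88.8, 158, 221 and 173 CPM against 80.8, 97.7 and 116 CPM, with F4 inside the vehicle range (edgeR adjusted p = 0.00624, 0.0184 without F10). The unfolded protein and ATF4 list gave 7 rises among 35, a count that was 12 without F4, 3 without F1, F2, F7 or F9, 2 without F6, F10 or F11 and 0 in the fit of the female mice alone. Phgdh, the first enzyme of serine synthesis, was 42.1, 4.87, 77.3, 1.87 and 30.8 CPM against 1.27, 3.71 and 8.84 CPM (2.82 ± 0.73, edgeR adjusted p = 0.00817, 0.0436 without F6), with F4 and F8 inside the vehicle range. Antioxidant and glutathione genes gave 8 rises and 1 fall among 40, with 5 rises without F6 and 0 in the fit of the female mice alone. Gpx3, the secreted glutathione peroxidase, rose in all treated mice (1250.0, 832, 1094, 1096 and 631 CPM against 261, 492 and 590.3 CPM, 1.05 ± 0.21, edgeR adjusted p = 0.00101). Gsta3, a glutathione transferase, was 30.9, 3.61, 62.8, 2.46 and 40.1 CPM against 1.07, 2.25 and 2.84 CPM, with F8 inside the vehicle range (edgeR adjusted p = 0.00319, 0.0134 without F6). Nqo1, a quinone reductase, fell to 11, 21.3, 9.5, 11 and 9.66 CPM from 21.8, 24.5 and 29.5 CPM (-1.02 ± 0.18, edgeR adjusted p = 0.00045). Immediate early genes gave 7 rises and 1 fall among 26, with 2 rises without F6, 3 without F2 or F10 and 4 without F5, F7 or F9. The fall was that of Nr4a1, an orphan nuclear receptor, with 72, 45.8, 46.6, 80.4 and 39.5 CPM against 150.0, 171 and 198 CPM (-1.61 ± 0.17, edgeR adjusted p = 3.39e-06).

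Among single genes with no overlap between groups, some of the largest rises concerned secreted proteins. Lcn2, which encodes lipocalin 2, a siderophore-binding protein, was 73, 88.1, 58.4, 32.3 and 28.4 CPM with corticosterone and 0.662, 0.83 and 1.97 CPM with vehicle (5.61 ± 0.54, edgeR adjusted p = 2.1e-06). F4 was its highest mouse. Serpina3n, a serine protease inhibitor of the acute phase, was 142, 36.3, 260.0, 11.2 and 133 CPM against 0.732, 2.12 and 7.38 CPM (5.38 ± 0.75, edgeR adjusted p = 6.32e-05), with F8 lowest. Among the largest falls was Pld5, a member of the phospholipase D family, with 0.773, 0.819, 0.323, 0.295 and 0.318 CPM against 2.47, 3.72 and 5.81 CPM (-2.95 ± 0.47, edgeR adjusted p = 0.000156). The genes with the largest spread among treated mice included Mup20, Cyp2c29 and Cyp3a11 of liver and Plin1, Acvr1c and Adrb3 of fat. Mup20, a urinary protein made by liver, was lowest in F4 (0.0963 CPM) and highest in F10 (70.3 CPM). Adrb3, the beta-3 adrenergic receptor of adipocytes, was lowest in F8 (0.394 CPM) and highest in F6 (84.1 CPM).

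In further lists between 1 and 7 genes were called, which is 6.25% to 25.9% of a list, against 13.2% of all tested genes, and the fit of the female mice alone called 0 to 3 genes in each. Of 27 calpain and apoptosis genes Capn2, Bcl2l1, Fas and Bbc3 rose and Capn1 fell. Capn2, a ubiquitous calcium-activated protease, was 127, 81, 143, 84.1 and 119 CPM against 59.4, 64.4 and 67 CPM (0.79 ± 0.11, edgeR adjusted p = 5.4e-05), and Capn1, its close relative, was 76.4, 80.4, 67.1, 76.7 and 58.6 CPM against 80.8, 97.5 and 115 CPM (-0.42 ± 0.11, edgeR adjusted p = 0.0091, 0.0259 without F9). The treated mice lay above all vehicle-treated mice for the first and below them for the second. Of 27 cell cycle brakes and Gadd45 genes 6 rose and 1 fell, and of 15 proliferation genes Mcm7 and Mcm5 rose and Aurka fell. Trp53inp1, a p53-induced protein, was 15.9 to 28.3 CPM against 5.96 to 11.8 CPM. Of 13 Kruppel-like factors Klf6 and Klf10 rose. Of 18 imprinted growth genes Peg10 rose and Grb10, Dlk1 and Meg3 fell. Among 20 genes of NAD metabolism Aox1 and Nadk rose and Nmnat1 fell, and among 16 polyamine and creatine genes Oaz2 fell. Aox1, an aldehyde oxidase, had 52.9 to 84.7 CPM against 24.9 to 52 CPM. Of 34 small proteoglycans and matricellular proteins Fbln1, Ccn1 and Prelp rose and Lum, Sparcl1 and Mfap2 fell. Lum, the proteoglycan lumican, was 16.8, 30.4, 22.3, 18.7 and 32.2 CPM against 37.2, 44.2 and 60.5 CPM (-0.98 ± 0.17, edgeR adjusted p = 0.000416). Of 24 genes of collagen modification Lox, Tgm2 and Plod3 rose and Loxl2 fell, and of 29 matrix proteases and inhibitors Timp4 and Mmp19 rose and Mmp2 and Mmp15 fell. Of 17 annexin and S100 genes Anxa11, Anxa4, S100a11 and S100a8 rose.

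Markers of further cell types were checked for their presence in the muscle. Schwann cell markers gave 1 fall in 15, Ngfr, with a summed level of 91.5 to 262 CPM with vehicle and 116 to 349 CPM with corticosterone. Smooth muscle markers gave 1 fall in 14, Smtn, at 711 to 1159 CPM against 721 to 1037 CPM. Tendon markers gave no call in 7 by edgeR, with 1 at an unadjusted p under 0.05 and 0 called by DESeq2, and their summed level was 33.5 to 466 CPM against 33.9 to 298 CPM. Complement genes gave 3 rises in 19, Masp1 (edgeR adjusted p = 0.00305, 0.0153 without F10), C3ar1 (edgeR adjusted p = 0.00371, 0.0232 without F10) and C5ar1 (edgeR adjusted p = 0.00479, 0.0232 without F10), and none of them was called in the fit of the female mice alone. Of 16 epidermal markers 7 were at 3 counts or fewer in every female mouse, among them Krt1 and Flg, and so were the milk protein genes Wap and Lalba. Of 12 neutrophil markers 3 (Ly6g, Ngp and Camp) were at 3 counts or fewer in every female mouse and 2 were tested, of which S100a8 rose. The summed level of the 12 was 3.73, 4.96, 10.8, 6.0 and 11.3 CPM in treated mice and 1.37, 4.59 and 6.86 CPM in vehicle-treated mice.

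**Figure D4:**
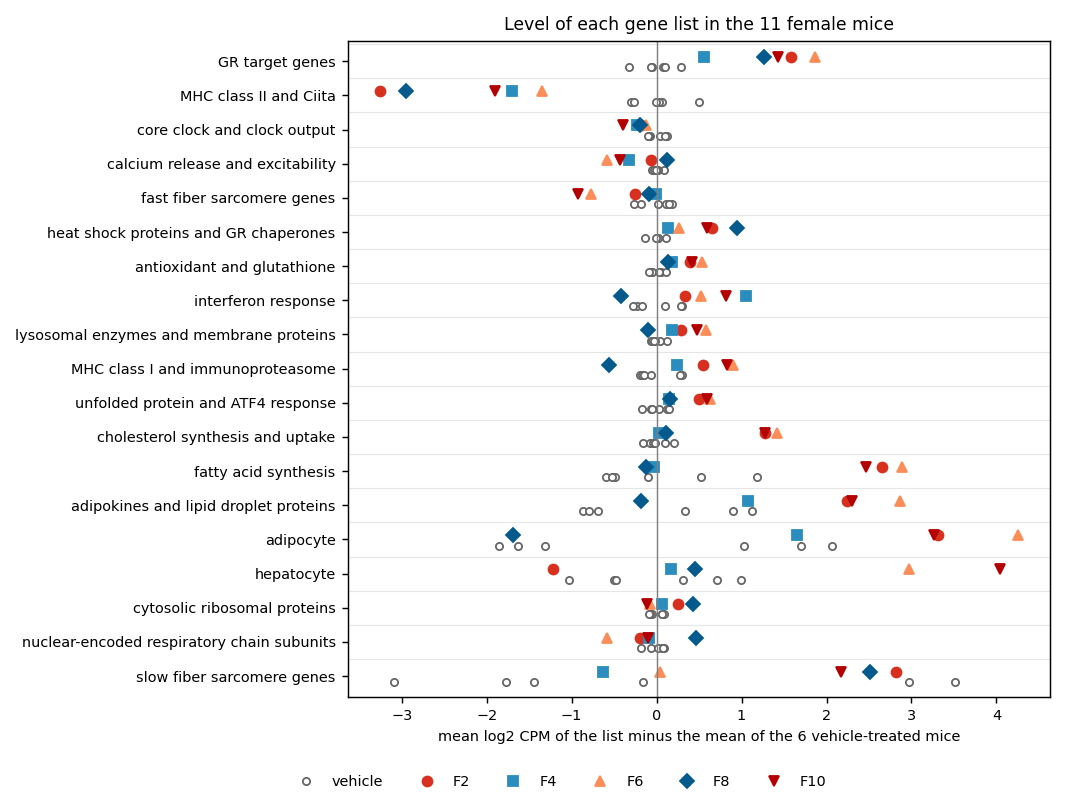
Level of each list, as the average log2 CPM over its tested genes, minus the mean of the 6 vehicle-treated mice, for vehicle-treated mice (open circles) and corticosterone-treated mice (filled symbols, by mouse). GR target genes lie above and MHC class II genes below the vehicle mean in all 5 treated mice, whereas the fatty acid synthesis and cholesterol lists are highest in F2, F6 and F10 and lower in F4 and F8.

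The spread between treated mice was compared with that between vehicle-treated mice over all 12613 genes. The distance of a mouse from the mean of its group in log2 CPM, corrected for group size, was 49.8, 57.5, 60.3, 76.1 and 53.9 in the treated mice, in the usual order. The means were 59.5 ± 10.1 (SD, n = 5) with corticosterone and 47.3 ± 4.99 (SD, n = 6) with vehicle, a ratio of 1.26 (exact permutation test, two-sided, p = 0.0173, and at best 0.00216 for groups of this size). F8 was the farthest from its group, and without it the ratio was 1.13 (exact permutation p = 0.167). Without F5 it was 1.25 (exact permutation p = 0.0794). Over genes, the median SD of log2 CPM was 0.275 among treated and 0.209 among vehicle-treated mice, and 66.9% of genes had the larger SD with treatment. Among called genes that rose the medians were 0.538 and 0.309, and among those that fell they were 0.262 and 0.201. An SD of at least 1 was found for 662 genes in treated and 381 genes in vehicle-treated mice.

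**Figure D5:**
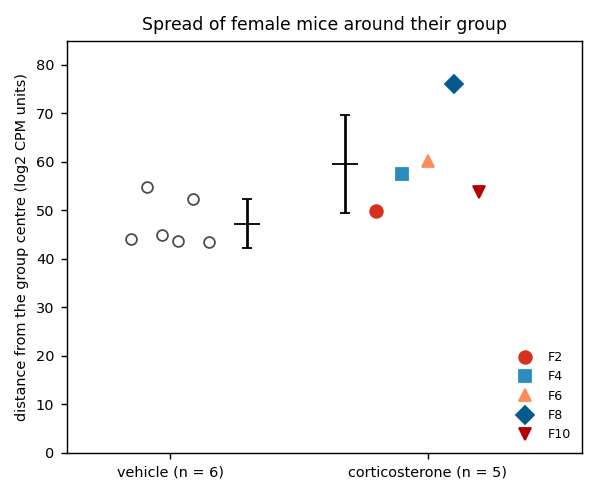
Distance of each female mouse from the mean of its own group over 12613 genes, in log2 CPM units corrected for group size, with the group mean ± SD as black crosses with bars. F8 at 76.1 is the farthest treated mouse, and the vehicle-treated mice lie between 43.5 and 54.8.

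A reference for the size of the response in single mice came from genes called in the male mice alone, since female values did not choose these. Over 1845 genes that rose in males, the median shift from the female vehicle mean was 0.26, 0.19, 0.22, 0.23 and 0.02 on the log2 scale in the usual order of treated mice. Over 1699 genes that fell in males it was -0.46, -0.23, -0.32, -0.42 and -0.21 in the same order. The vehicle-treated mice lay between -0.10 and 0.17 over the first set and between -0.14 and 0.11 over the second. F9, with 0.17 and -0.14, was the vehicle-treated mouse nearest to the treated mice, and F10 lay inside the vehicle range over the first set. F8 lay close to F2. The treatment effect was tested against that of males through the interaction, which passed for 97 genes (0.769%). That count rested on single mice, with 3 genes without F10, 6 without F1, 9 without F9, 14 without F6, 29 without F11, 32 without F7, 53 without F2, 311 without F3, 397 without F4 and 851 without F8. Nr4a1 fell in females and had a log2 fold change of -0.22 in males (interaction -1.39 ± 0.23, edgeR adjusted p = 0.00606, 0.0119 without F10). Foxo3 rose by 0.52 ± 0.13 in females (edgeR adjusted p = 0.00421, 0.0218 without F6) and 1.54 in males (interaction -1.02 ± 0.18, edgeR adjusted p = 0.00606, 0.0119 without F10). Sesn1, a stress-induced inhibitor of mTORC1, was at 0.03 ± 0.18 in females and 1.64 in males (edgeR adjusted p = 0.00353, 0.0101 without F10). Col3a1 differed as well, at -1.34 in females and -3.96 in males (edgeR adjusted p = 0.00811, 0.0179 without F10). None of the fatty acid synthesis, cholesterol, MHC class I or MHC class II genes passed the interaction test at 0.01 with edgeR. An unadjusted interaction p under 0.05 was found for 10 of 23, 16 of 27, 21 of 23 and 6 of 9 of them. The share of all tested genes with such a p was not taken, so these counts cannot show whether the lists differed between the sexes more than other genes did.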

How the data were processed

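Quadriceps RNA of each mouse was made into stranded, mRNA-enriched libraries and sequenced as paired ends of 100 bases on the DNBseq platform. Per the study's methods and the submitters' processing notes, the authors aligned the reads to the mouse genome (mm10) with STAR 2.7.3a and counted reads per gene with HTSeq 0.12.4, and they deposited the raw counts of all 23 mice in 1 table with no normalisation. HTSeq's summary rows, which held 11.3% to 15.3% of the counts of a female library, were dropped. Symbols and positions came from the GENCODE annotation of GRCm38, in which 93 gene IDs had no match. Genes on X, Y and the mitochondrial genome were tested but are not described.

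Genes with over 20 normalised counts (median of ratios) in at least 4 mice of a group entered the quasi-likelihood test of edgeR (edgeR 4.0.16, R 4.3.3, TMM, robust), with 1 fit over all mice and 1 mean per group of sex and treatment. P-values were adjusted by Benjamini-Hochberg over all 13049 tested genes, with a threshold of 0.01. List levels are the mean log2 CPM (prior count 1) of the tested members. The study's methods name DESeq2, which (DESeq2 1.42.0) was run as an alternative beside limma-voom (limma 3.58.1) with sample quality weights. Further alternatives were the gene filter, the normalisation, the female mice alone, the limits on p and fold change, an adipocyte or hepatocyte score as a covariate, and each female mouse left out. A fit without the robust option was added after seeing the data. On counts simulated from these libraries with 200 altered genes, edgeR recovered 74% of those shifted by 1 and 89% of those shifted by 2 on the log2 scale. The simulation drew each gene independently with the same spread in all groups. The treated female mice were more spread than that, so recovery in these data may be lower. Counts of no pair of replicates agreed within sampling noise (chi-square over its degrees of freedom of at least 22.3).

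The members and lists were chosen with earlier results of these data known. For each list up to 4 genes of a short set with the lowest p and the 1 with the highest could be named, as could the 10 largest rises, falls and treated SDs, and the text gives those that stand for their list. Genes outside this rule, among them those that make up counts of 5 or fewer, were named after their values were seen. Some genes are not reported here. Promoter stretches and motif matches use RefSeq on GRCm38.p6.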

Additional observations from a re-analysis of the deposited data

Results flagged for a closer look

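In 10 of 250 groups of mice, each a gene or list given with its level in 1 group, a single mouse stood apart by Dixon's gap criterion on the log2 scale, and chance flags about 1 group in 20. Among the treated mice F4 was set apart for Actc1 (1113 CPM, high), Irs1 (101 CPM, high), Nqo1 (21.3 CPM, high), Pax7 (2.46 CPM, high) and Hsp90aa1 (53.7 CPM, low), in each case on the side of the vehicle-treated mice. F8 was set apart for Irf7 (7.18 CPM, low) and Irf8 (2.90 CPM, low). Among the vehicle-treated mice F11 was set apart for Gpx3 (261 CPM, low) and Smad3 (58.9 CPM, low), and F5 for Acly (177 CPM, high).

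The response differed from that of males by the interaction test for 6 of the named genes, and none of the 6 passed it without F10, 1 passed it without F1 or without F9, and 2 without F6. The difference in log2 fold change, female minus male, was 2.61 for Col3a1, 1.32 for Col6a1, 0.75 for Slc27a4, -1.02 for Foxo3, -1.39 for Nr4a1 and -1.61 for Sesn1. Slc27a4, a fatty acid transporter, had 0.40 ± 0.10 in females and -0.35 in males (interaction, edgeR adjusted p = 0.00752, 0.0198 without F10). Col6a1 had -0.74 ± 0.20 in females and -2.06 in males (interaction, edgeR adjusted p = 0.00961, 0.0215 without F10).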

How the results depend on the processing

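No paired analysis was possible because vehicle-treated mice carry odd and corticosterone-treated mice even numbers, so that no number occurs in both groups. With edgeR the count of changed genes (1670, with 910 higher and 760 lower) was 535 (237 and 298) in the female mice alone, 682 (491 and 191) with a log2 fold change beyond 1, 3345 (1860 and 1485) at a threshold of 0.05 and 686 (331 and 355) with the adipocyte score as a covariate. DESeq2 called 2386, limma-voom 2366, the fit with the hepatocyte score 1427, the fit with no gene filter 1235 and the fit without the robust option 1692. Leaving out 1 mouse gave 944 (without F6) to 2264 (without F8) changed genes, 443 to 1349 higher and 492 to 959 lower. The 97 interactions became 10 with no gene filter, 874 with DESeq2 and 672 with limma-voom, and 3 to 851 without 1 mouse. The spread ratio of 1.26 was 1.23 with genes scaled to unit SD (exact permutation p = 0.0758) and 1.13 to 1.33 without 1 mouse, with the permutation p above 0.05 without F5 or F8.

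Of the 172 named genes that were called, 57 kept their call under all 20 alternatives and 105 kept it whichever mouse was left out. The losses numbered 103 in the female mice alone, 82 with the adipocyte score, 58 without F6, 49 without F2, 44 without F10, 11 without F8 and 5 without F4. Under these alternatives none of the 172 changed direction. Of those not called, the log2 fold change turned to -0.92 for Acvr1c, -0.060 for Adgre1, -0.57 for Adrb3 and -0.20 for Plin1 with the adipocyte score, to -0.16 for Cyp3a11 with the hepatocyte score, and to 0.48 for Cfd with limma-voom. Sesn1 turned to -0.013 with no gene filter and lay between -0.052 and 0.19 without 1 mouse. The cause of these changes was not tested. With 5 treated and 6 vehicle-treated mice, differences within the spread between mice were not detectable, and 3 counts, at most 0.144 CPM before TMM factors, limit the genes of lowest level.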
